A study of Homo sapiens with 6 samples.

Results

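The messages of the epidermal growth factor (EGF) receptor family were examined in RNA sequencing libraries whose labels name HepG2, an established cell line from a human liver cancer. The 10 genes were taken by symbol from the deposited table of 27452 rows. They comprise the receptor genes EGFR, ERBB2 and ERBB3, the ligand genes AREG, EREG, HBEGF, TGFA, BTC and NRG1, and the inhibitor gene ERRFI1. Of these, 9 passed the filter on low counts, which kept 14999 rows in all, and BTC did not. The study compared lines made with a control short hairpin RNA (Ctrl shRNA) with lines made with an shRNA against STAT3, a transcription factor of cytokine signalling, with 3 libraries in each group and 6 in all. Total RNA was taken from cells grown in DMEM with serum and antibiotics, which both groups shared, and no cytokine or growth factor treatment is named in the labels. The labels do not say whether the numbered libraries are separate cultures, separate clones or different hairpins, so the p-values rest on library-to-library spread that may be technical. A difference between the lines that arose as they were made cannot be told apart from the effect of the hairpin.

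The receptors of this family are tyrosine kinases of the cell surface that act in pairs. EGFR binds most of the ligands named here, ERBB2 binds none and serves as a partner, and ERBB3 binds neuregulins but has a kinase of very low activity, so that it signals through its partners. The ligands are made as membrane proteins and are cut free by cell surface proteases, and the bound receptors pass the signal to the RAS-ERK and PI3K-AKT pathways. In liver the family is known for its part in regeneration after injury.

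Total counts ran from 17408543 to 25862027 per library. STAT3 itself lay at 261.5, 246.7 and 246.3 CPM (read counts divided by the scaled library size) in control libraries 1, 2 and 3 and at 34.8, 35.8 and 36.2 CPM in STAT3 shRNA libraries 1, 2 and 3. Its log2 fold change was -2.82 ± 0.0845 (SE; edgeR quasi-likelihood test, adjusted p = 2.19e-07), so that every library carried the STAT3 level of its label. The hepatocyte markers did not bear out the label of the line: of 24 markers 14 had a row, 3 reached 1 CPM in any library, and 9 had at most 3 counts in each, albumin (ALB) with 2, 0 and 0 counts in the control and 0, 0 and 3 counts in the STAT3 shRNA libraries among them. Their summed level was 4.37 to 5.27 CPM in the control and 7.58 to 10.8 CPM in the STAT3 shRNA libraries. Of the 3 that reached a mean of 1 CPM in a group, the transcription factor HNF4A rose from 1.51 ± 0.260 to 6.58 ± 1.41 CPM (edgeR adjusted p = 0.000406), while TF lay at 1.59 ± 0.875 and 0.806 ± 0.333 CPM and RBP4 at 1.31 ± 0.4996 and 1.14 ± 0.192 CPM, neither of them called. Epithelial markers summed to 3784 to 4622 CPM in the control and 5384 to 5930 CPM in the STAT3 shRNA libraries. Most of this came from the keratin genes KRT8, KRT18 and KRT7, at means of 1814, 1256 and 1061 against 2882, 1747 and 743 CPM. EPCAM lay at only 3.06 ± 0.387 and 10.5 ± 0.770 CPM and CDH1 at 0.576 ± 0.310 and 0.734 ± 0.132 CPM, with KRT19, CLDN7 and CLDN4 in between. Of the 8 with a row 7 were called, 5 higher and 2 lower, and CDH1 was not called. That is 87.5%, beside 17.5% of all tested genes. Fibroblast and smooth muscle markers summed to 60.3 to 70.6 CPM and 48.0 to 51.9 CPM, endothelial markers to 1.48 to 2.19 CPM and 1.39 to 2.29 CPM, and blood cell markers to 11.3 to 15.7 CPM and 20.8 to 28.2 CPM, of which CD68, a lysosomal protein, held 13.6 ± 2.73 and 24.2 ± 3.77 CPM. The part of these marker shifts in the values below was not tested, and in bulk RNA fewer cells of a type and less RNA per cell cannot be told apart. Control library 1 stood apart from control library 3 on the second principal component of log2 CPM (44.3 against -27.5, with control library 2 at -1.56), and STAT3 shRNA library 2 stood apart from STAT3 shRNA libraries 1 and 3 (-31.1 against 6.32 and 9.48), so results that change without 1 library are given both ways.

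The sequences before the transcription starts of EGFR, the most abundant receptor message, of TGFA, a ligand gene that was higher with the STAT3 shRNA, and of EREG and AREG, a neighbouring pair with lower values, are shown because STAT3 is a factor that binds DNA. They are RefSeq sequences of GRCh38.p14, which need not be the build of the deposited table, and run 5′ to 3′ on the gene's strand, ending at the RefSeq start or where an exon of GENCODE 29 begins. The EGFR stretch is chr7:55018767-55019016 (plus strand), that of TGFA chr2:70554016-70554076 (minus strand), that of EREG chr4:74364895-74365142 (plus strand) and that of AREG chr4:74444886-74445133 (plus strand). Capitals mark GC boxes, the letters GGGCGG on either strand.
EGFR: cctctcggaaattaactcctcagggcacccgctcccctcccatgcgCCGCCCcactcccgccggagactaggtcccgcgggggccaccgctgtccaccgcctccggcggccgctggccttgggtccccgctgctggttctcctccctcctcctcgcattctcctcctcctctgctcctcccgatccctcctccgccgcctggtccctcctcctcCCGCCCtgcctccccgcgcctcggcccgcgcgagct
TGFA: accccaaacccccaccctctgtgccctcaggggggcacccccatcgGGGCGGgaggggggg
EREG: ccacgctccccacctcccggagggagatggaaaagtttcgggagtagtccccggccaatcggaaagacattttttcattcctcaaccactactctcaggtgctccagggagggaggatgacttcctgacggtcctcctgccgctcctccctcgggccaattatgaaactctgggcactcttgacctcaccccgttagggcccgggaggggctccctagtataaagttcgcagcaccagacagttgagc
AREG: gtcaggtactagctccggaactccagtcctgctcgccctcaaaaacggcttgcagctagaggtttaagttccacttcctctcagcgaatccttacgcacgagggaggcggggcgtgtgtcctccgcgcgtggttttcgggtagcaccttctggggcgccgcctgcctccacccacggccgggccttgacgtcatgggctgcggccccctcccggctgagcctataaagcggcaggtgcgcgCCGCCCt

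Short sequences of 3 kinds were looked for on both strands in the 250 bases before each start: the palindrome TTCNNNGAA that STAT proteins bind, the AP-1 site TGANTCA and the GC box GGGCGG. Promoters were matched by symbol for 8 of the 10 genes, and ERBB3 and NRG1 were not matched. The STAT palindrome was found in 0 of the 8, against 6.78% of 27305 promoters of the same length. The AP-1 letters were found in ERBB2 alone, against 6.60% of all promoters. GC boxes were found in EGFR (2), AREG (1), HBEGF (5, the last 2 of them sharing a base), TGFA (3) and ERRFI1 (1), against 42.3% of all promoters. The window of TGFA held 75.6% G and C, that of EGFR 73.6%, that of AREG 65.2% and that of EREG 58.0%, beside a median of 58.0% over all promoters. A match is a description of letters and not of binding, and the absence of a match in so short a window says nothing of binding elsewhere.

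With the STAT3 shRNA, 3 members of the family were higher: the ligand genes TGFA and NRG1, each about doubled, and the receptor gene ERBB3. EGFR, ERBB2, HBEGF, ERRFI1, AREG and EREG did not pass the test, and 0 members were called lower by edgeR or by DESeq2. AREG and EREG, 2 genes, had lower values at an edgeR unadjusted p under 0.05. In either direction 4709 of all 14999 tested genes lay under 0.05, and among the members TGFA, NRG1, ERBB3, AREG and EREG did. AREG and EREG passed the filter on low counts only through the control libraries, where they were higher, so their lower values carry that selection. Over all genes tested 17.5% were called at a false discovery rate (FDR) of 0.05, 9.39% higher and 8.13% lower, whereas 33.3% of the 9 tested members, or 3 genes, were called higher. The median log2 fold change (STAT3 shRNA over control) was 0.26 over the 9 members and -0.01 over all tested genes, and 7 members had a positive and 2 a negative value. In 6 of the 9 the control and STAT3 shRNA libraries did not overlap, beside 35.7% of all tested genes. AREG and EREG are 2 of these 6, so this count carries the same selection. Without control library 1, 5 members were called higher, EGFR and ERRFI1 being added, when 26.5% of all tested genes were called. Without control library 2, STAT3 shRNA library 1 or STAT3 shRNA library 3, only TGFA and NRG1 were called, when 9.88%, 9.58% and 9.60% of all tested genes were. Without STAT3 shRNA library 2 EREG was called lower, when 13.7% of all tested genes were called.

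**Figure D1:**
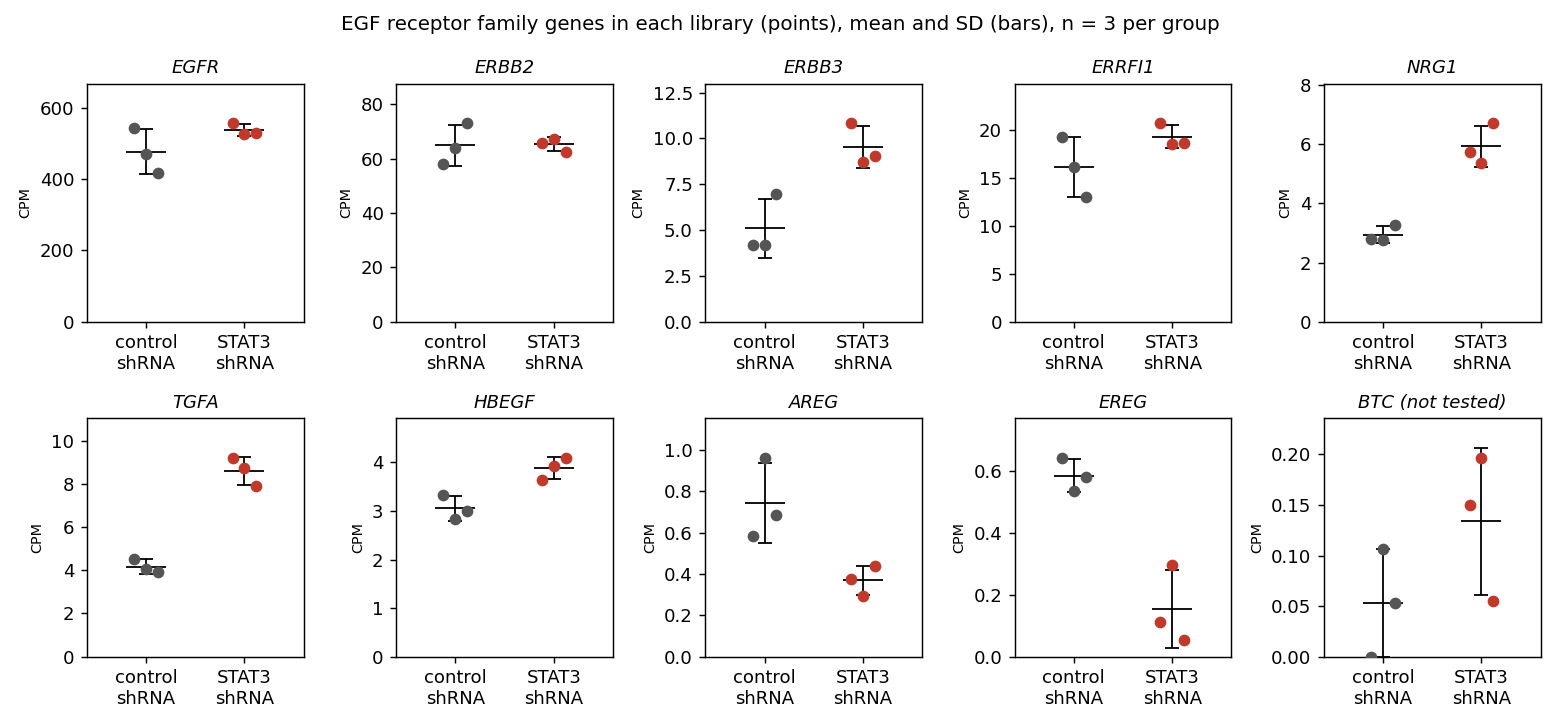
CPM of the 10 genes in each library (points), with the mean and SD of the 3 libraries of a group (bars); every vertical axis is linear, starts at 0 and has its own scale. The points of TGFA, NRG1 and ERBB3 lie higher and those of AREG and EREG lower in the STAT3 shRNA libraries with no overlap, while those of EGFR and ERBB2 overlap.

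Among the receptors, EGFR (ENSG00000146648.18), the receptor of EGF, TGF-alpha and amphiregulin, had 543, 471 and 416 CPM in the control libraries and 556, 526 and 529.6 CPM in the STAT3 shRNA libraries. Control library 1 reached into the range of the STAT3 shRNA libraries, and the other two control libraries lay below it. The means were 477 ± 63.8 and 537 ± 16.2 CPM (SD, n = 3 per group). The log2 fold change was 0.17 ± 0.105 (SE; edgeR adjusted p = 0.298) with a 95% interval from -0.06 to 0.41. Without control library 1 the value was 0.29 and passed the test (edgeR adjusted p = 0.0394), and over all 13 alternatives the adjusted p ran from 0.0394 to 0.568. EGFR-AS1, annotated on the opposite strand within EGFR, had 27 counts over the control and 16 over the STAT3 shRNA libraries.

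ERBB2 (ENSG00000141736.13), the partner receptor without a ligand of its own, had 57.9, 64.0 and 73.0 CPM in the control libraries and 65.9, 67.4 and 62.4 CPM in the STAT3 shRNA libraries. The groups overlapped fully. The log2 fold change was 0.01 ± 0.105 (edgeR adjusted p = 0.978), and its 95% interval ran from -0.23 to 0.24, so a doubling or a halving lies outside it. Its sign changed in 4 of the 13 alternatives. PGAP3 and MIEN1 overlap ERBB2 on the opposite strand, with log2 fold changes of 0.22 ± 0.241 and -0.33 ± 0.170, and neither was called.

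ERBB3 (ENSG00000065361.15), the neuregulin receptor, had 4.20, 4.16 and 6.96 CPM in the control libraries, or 72, 78 and 132 counts. In the STAT3 shRNA libraries it had 10.8, 8.69 and 9.05 CPM, or 288, 177 and 166 counts. Control library 3 lay above the other two control libraries and below all STAT3 shRNA libraries. The mean rose from 5.11 ± 1.603 to 9.52 ± 1.14 CPM (n = 3 per group), a 1.86-fold higher level (log2 fold change 0.90 ± 0.220; edgeR adjusted p = 0.0217). The call was lost without control library 2 (0.76, edgeR adjusted p = 0.0999), without STAT3 shRNA library 1 (0.79, edgeR adjusted p = 0.102) and without STAT3 shRNA library 3 (0.93, edgeR adjusted p = 0.0678), while over the 13 alternatives that used the counts of ERBB3 alone the adjusted p ran from 0.00144 to 0.102.

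AC034102.2, a gene model that overlaps ERBB3 on the same strand, has 489 exonic bases in GENCODE 29, of which 31 are shared with ERBB3 and 458 with the next gene, PA2G4, a growth regulator whose product binds ERBB3. Its counts were 326, 0 and 0 in control libraries 1, 2 and 3 against 423, 0 and 290 with the STAT3 shRNA, so within each group it was listed at 290 or more counts in some libraries and at 0 in the others. How reads of the 31 shared bases were assigned is not known. PA2G4, with 6297 to 9851 counts per library, fell (-0.33 ± 0.0855; edgeR adjusted p = 0.0285).

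Among the ligands, TGFA (ENSG00000163235.16), which encodes TGF-alpha, a ligand of EGFR, had 4.55, 4.06 and 3.90 CPM in the control libraries and 9.21, 8.74 and 7.91 CPM in the STAT3 shRNA libraries. The counts behind these values were 78, 76 and 74 against 245, 178 and 145. The lowest STAT3 shRNA library lay well above the highest control library. The mean rose from 4.17 ± 0.338 to 8.62 ± 0.659 CPM (n = 3 per group), a 2.07-fold higher level (log2 fold change 1.05 ± 0.153; edgeR adjusted p = 0.00154). The value stayed between 0.998 and 1.14 and passed the test in all 13 alternatives.

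NRG1 (ENSG00000157168.19), or neuregulin 1, a ligand of ERBB3 and ERBB4, had 2.80, 2.78 and 3.27 CPM in the control libraries and 5.75, 5.35 and 6.71 CPM in the STAT3 shRNA libraries. The counts were 48, 52 and 62 against 153, 109 and 123. The groups did not overlap. The mean rose from 2.95 ± 0.278 to 5.94 ± 0.696 CPM (n = 3 per group), a 2.01-fold higher level (log2 fold change 1.01 ± 0.182; edgeR adjusted p = 0.0051). In the 13 alternatives the value ran from 0.91 to 1.11 and passed the test each time.

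HBEGF (ENSG00000113070.8), the heparin-binding ligand of EGFR, had 3.32, 2.83 and 3.005 CPM in the control libraries and 3.65, 3.93 and 4.09 CPM in the STAT3 shRNA libraries. The groups did not overlap, but the gap between them was narrow. The log2 fold change was 0.35 ± 0.185 (edgeR adjusted p = 0.238) with a 95% interval from -0.07 to 0.77, which leaves out a doubling.

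AREG, EREG and BTC are neighbours: with EPGN, another EGFR ligand gene, they stand in the order EPGN, EREG, AREG and BTC on chromosome 4 with no other protein-coding gene of GENCODE 29 between them. All 4 had at most 18 counts in any library. AREG (ENSG00000109321.11), or amphiregulin, had 10, 18 and 13 counts in the control and 10, 6 and 8 counts in the STAT3 shRNA libraries, or 0.583, 0.961 and 0.685 CPM against 0.376, 0.295 and 0.436 CPM. The groups did not overlap in CPM. The log2 fold change was -1.01 ± 0.417 (edgeR adjusted p = 0.135) with a 95% interval from -1.95 to -0.06.

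EREG (ENSG00000124882.4), or epiregulin, had 11, 10 and 11 counts in the control and 3, 6 and 1 counts in the STAT3 shRNA libraries. These are 0.642, 0.534 and 0.580 CPM against 0.113, 0.295 and 0.0545 CPM. All control libraries lay above all STAT3 shRNA libraries. The log2 fold change was -1.89 ± 0.588 with a 95% interval from -3.21 to -0.56, and it missed the threshold narrowly (edgeR adjusted p = 0.0566). It was -2.65 and passed the test without STAT3 shRNA library 2 (edgeR adjusted p = 0.0342), and over the 12 alternatives that kept it the adjusted p ran from 0.0342 to 0.213. BTC (ENSG00000174808.12), or betacellulin, had 0, 2 and 1 counts against 4, 4 and 1 counts, and EPGN 1, 0 and 2 against 0, 0 and 0. A library with 0 counts could still hold up to 0.113 CPM in the deepest and 0.175 CPM in the shallowest case, taking 3 counts as the floor, for counting error only. At this depth no difference in BTC or EPGN was detectable.

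ERRFI1 (ENSG00000116285.13), also called MIG6, whose product binds the active kinase of the receptors and blocks it, had 19.2, 16.1 and 13.0 CPM in the control libraries and 20.7, 18.5 and 18.6 CPM in the STAT3 shRNA libraries. Control library 1 lay within the range of the STAT3 shRNA libraries, as it did for EGFR, and the other two control libraries lay below. The log2 fold change was 0.26 ± 0.149 (edgeR adjusted p = 0.269) with a 95% interval from -0.08 to 0.60. Without control library 1 it was 0.42 (edgeR adjusted p = 0.0411), and over the 13 alternatives the adjusted p ran from 0.0411 to 0.554.

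**Figure D2:**
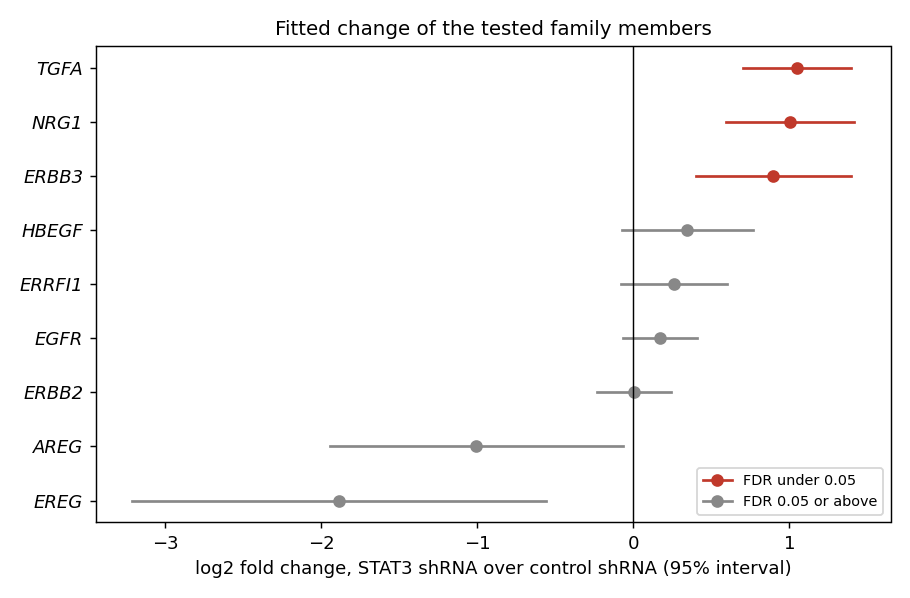
Fitted log2 fold change of the 9 tested genes, STAT3 shRNA over control shRNA (points), with 95% intervals (lines), in red where the FDR was under 0.05. TGFA, NRG1 and ERBB3 lie clear of 0 on the right, and AREG and EREG lie on the left with the widest intervals of the 9.

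Spread between the libraries of a group was larger in the control group for both main receptors. The coefficient of variation of EGFR was 13.4% in the control and 3.02% in the STAT3 shRNA libraries, that of ERBB2 11.7% and 3.92%, that of ERBB3 31.4% and 11.99%, and that of ERRFI1 19.5% and 6.27%. Over the 3 control libraries EGFR and ERRFI1 were highest in library 1 and lowest in library 3, whereas ERBB2 and ERBB3 were highest in library 3. TGFA varied by 8.12% and 7.65% and NRG1 by 9.42% and 11.7%.

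To compare genes with each other, CPM were divided by the length in kilobases of the longest GENCODE 29 transcript. On this scale EGFR lay at 48.5 ± 6.50 CPM per kilobase in the control libraries. Of all 14999 tested genes 86.4% lay below it. A length was known for 14373 of them, and the share counts those without a length as not below. EGFR was followed by ERBB2 at 13.2 ± 1.54 and ERRFI1 at 5.19 ± 1.01 CPM per kilobase, each apart from its neighbours in every library. The 6 ligand genes of the set and ERBB3 lay lower, with HBEGF at 1.28 ± 0.105, TGFA at 0.967 ± 0.0785, ERBB3 at 0.863 ± 0.271, AREG at 0.599 ± 0.158 and NRG1 at 0.497 ± 0.0468 CPM per kilobase. TGFA and ERBB3, ERBB3 and AREG, and AREG and NRG1 overlapped as neighbours in this order. EREG at 0.127 ± 0.0117 and BTC at 0.0189 ± 0.0190 CPM per kilobase closed it. NRG4, a ligand gene outside the set, lay at 11.8 ± 1.68 CPM per kilobase in the control and 11.8 ± 1.016 in the STAT3 shRNA libraries.

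In the STAT3 shRNA libraries the first 3 places were unchanged, with EGFR at 54.7 ± 1.65, ERBB2 at 13.2 ± 0.519 and ERRFI1 at 6.21 ± 0.389 CPM per kilobase. TGFA, at 1.999 ± 0.153 CPM per kilobase, stood above HBEGF, at 1.63 ± 0.0942, in every library, the reverse of the control order on this scale. In CPM not divided by length, TGFA lay above HBEGF in every library of both groups. The order thus rests on the lengths used, and which transcripts were expressed is not known. ERBB3 followed at 1.61 ± 0.193 and overlapped HBEGF. NRG1, at 1.001 ± 0.117 CPM per kilobase, stood above AREG, at 0.297 ± 0.0573, with no overlap. BTC and EREG, at 0.0475 ± 0.0257 and 0.0333 ± 0.0271 CPM per kilobase, could not be told apart.

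**Figure D3:**
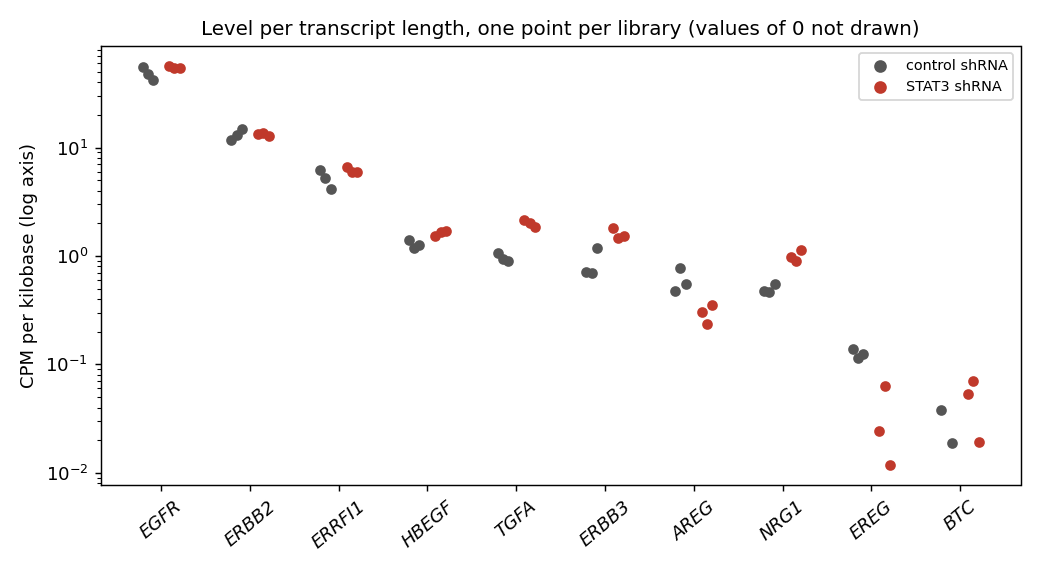
CPM per kilobase of transcript on a log axis, 1 point per library, with the genes in the order of their control means; the control library in which BTC was at 0 is not drawn. EGFR at 48.5 and 54.7 CPM per kilobase stands above the 6 ligand genes drawn, and TGFA and HBEGF change places between the groups on this scale, though not in CPM.

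Summed on the same scale, EGFR held 77.3 ± 4.53% of the messages of the 3 receptors in the control and 78.7 ± 0.618% in the STAT3 shRNA libraries, ERBB2 21.3 ± 4.03% and 19.0 ± 0.745%, and ERBB3 1.40 ± 0.535% and 2.31 ± 0.213% (SD, n = 3 per group). The share of EGFR ran from 72.6% in control library 3 to 81.6% in control library 1, a range that holds all STAT3 shRNA libraries. The 6 ligand genes of the set together rested on 204 to 218 counts per control library and 353 to 512 counts per STAT3 shRNA library, and summed to 3.49 ± 0.0662 and 5.01 ± 0.0573 CPM per kilobase. Within that sum TGFA went from 27.7 ± 1.90% to 39.9 ± 3.31% and NRG1 from 14.3 ± 1.63% to 19.97 ± 2.12%. AREG went from 17.2 ± 4.42% to 5.93 ± 1.08%, and HBEGF from 36.7 ± 2.91% to 32.5 ± 1.81%. These shares restate the levels given above, and no test was made on them.

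**Figure D4:**
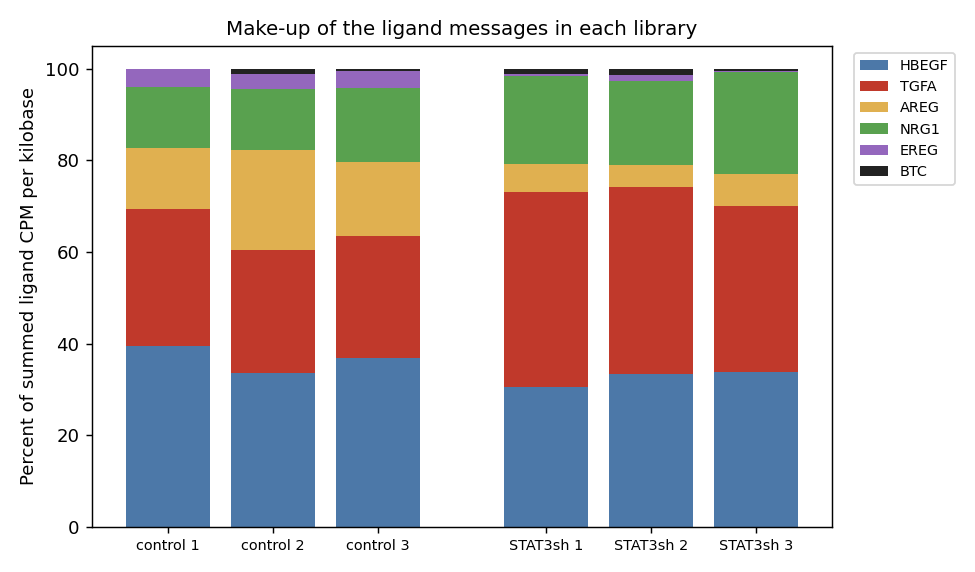
Percent of the summed ligand CPM per kilobase held by each of the 6 ligand genes, 1 bar per library, each bar reaching 100%. TGFA holds 26.5 to 29.9% in the control and 36.2 to 42.6% in the STAT3 shRNA libraries, and AREG holds 13.3 to 21.99% and 4.80 to 6.95%.

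The 40 tested genes nearest to each member, 20 on each side in GENCODE 29 order, were set beside it. Around TGFA 5 were called higher and 2 lower with a median log2 fold change of 0.06, and around NRG1 5 and 1 with a median of 0.05. Around ERBB3 1 was called, lower, with a median of -0.09. Around EREG 2 were called higher and 3 lower (median -0.03). The called higher share of 12.5% around both TGFA and NRG1 was near the 9.39% of all tested genes.

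Genes that act with the receptors were taken from lists of 117 genes, of which 102 were tested, and 10 were called higher and 8 lower. That is 17.6%, about the share of all tested genes (17.5%), with a median log2 fold change of -0.01. Leaving out control library 1 gave 20 higher and 13 lower genes. Leaving out control library 2, STAT3 shRNA library 1 or STAT3 shRNA library 3 gave 6 higher, and leaving out STAT3 shRNA library 1 or 2 gave 5 lower. The other receptor and ligand genes did not pass the test: ERBB4, which binds neuregulins, lay at 4.55 ± 0.908 and 5.31 ± 0.231 CPM (0.22 ± 0.188), and NRG4, a ligand of ERBB4, at 40.1 ± 5.71 and 40.3 ± 3.46 CPM (0.01 ± 0.126). EGF itself had 1, 1 and 0 counts in the control and 3, 0 and 3 counts in the STAT3 shRNA libraries.

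Of 7 tested genes of ligand release, 3 were called, all of them higher, with a list median of -0.06. That is 42.9% of a short list, beside 17.5% called and 9.39% called higher over all tested genes. ADAM10 and ADAM17 encode the main proteases that cut these ligands from the membrane. ADAM17 had 30.4, 30.6 and 23.99 CPM in the control and 39.8, 37.0 and 39.3 CPM in the STAT3 shRNA libraries (0.45 ± 0.117; edgeR adjusted p = 0.0281). ADAM10 rose from 65.4 ± 11.7 to 93.6 ± 6.11 CPM (0.52 ± 0.131). TIMP3, an inhibitor of ADAM17, rose as well, from 35.2 ± 2.83 to 56.6 ± 3.79 CPM (0.68 ± 0.103; edgeR adjusted p = 0.00183). The ADAM10 call was lost without control library 2, STAT3 shRNA library 1 or STAT3 shRNA library 3 (edgeR adjusted p = 0.103, 0.107 and 0.105), and the ADAM17 call also without STAT3 shRNA library 2 (edgeR adjusted p from 0.0529 to 0.120 over these 4 fits). Over all 13 alternatives the adjusted p ran from 0.00136 to 0.107 for ADAM10 and from 0.00732 to 0.120 for ADAM17, while TIMP3 passed in each.

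Of 15 tested adapters 2 were called higher and 1 lower. GAB2, a docking protein of the receptors, rose from 19.7 ± 1.70 to 40.7 ± 4.21 CPM (1.05 ± 0.118; edgeR adjusted p = 0.000398). SHC1, the adapter that joins the receptors to RAS activation, fell from 184 ± 16.2 to 118 ± 6.54 CPM (-0.64 ± 0.0948; edgeR adjusted p = 0.00171). Its relative SHC3 rose from 0.141 ± 0.161 to 0.939 ± 0.196 CPM, a call on few counts that was lost in 5 of 12 alternatives. SHC3 passed the filter on low counts only through the STAT3 shRNA libraries, where it was higher. Of 23 tested genes of receptor down-regulation 3 were called, all of them higher. That is 13.0%, below the 17.5% of all tested genes, and the list median was 0.03. LRIG1, a membrane protein that promotes receptor breakdown, rose from 1.95 ± 0.254 to 4.395 ± 0.870 CPM (1.17 ± 0.229). SH3KBP1, a partner of the ubiquitin ligase CBL, rose from 55.8 ± 3.58 to 95.5 ± 3.15 CPM (0.78 ± 0.0883). SH3GL2, an endophilin of endocytosis, rose from 26.5 ± 2.07 to 34.6 ± 2.96 CPM (0.38 ± 0.110). The SH3GL2 call was lost in 3 of 13 alternatives.

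Inside the cell, the RAS-ERK cascade had 1 of 19 tested genes called, 5.26% against 17.5% of all tested genes: KSR1, a scaffold of the cascade, fell from 15.2 ± 1.15 to 10.7 ± 0.477 CPM (-0.51 ± 0.119), a call lost in 3 of 13 alternatives. The PI3K-AKT branch had 1 of 14 called, 7.14% against the same 17.5%. This was PIK3R3, a regulatory subunit of the lipid kinase, which rose from 43.3 ± 1.92 to 63.8 ± 1.51 CPM (0.56 ± 0.0872).

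The list drawn up for ERK-responsive genes and feedback inhibitors, which also holds ELK1, ELK3 and ELK4, had 1 of 22 called higher and 6 lower. That is 31.8%, beside 17.5% of all tested genes, of which 9.39% were called higher and 8.13% lower. The list median was -0.07. Whether each of these messages responds to ERK in these cells was not tested. ETV5, an ETS transcription factor, had 9.68, 10.5 and 9.86 CPM in the control and 3.57, 4.66 and 3.33 CPM in the STAT3 shRNA libraries (-1.38 ± 0.169; edgeR adjusted p = 0.000606). Its relative ETV4 fell from 11.7 ± 1.22 to 5.39 ± 0.425 CPM (-1.11 ± 0.145). SPRY2, a feedback inhibitor of receptor signalling, fell from 18.9 ± 2.06 to 9.33 ± 0.561 CPM (-1.02 ± 0.127). The other lower genes, named after their values were seen, were the feedback inhibitors SPRY1 (-1.52 ± 0.371) and SPRED2 (-0.55 ± 0.124) and the receptor EPHA2 (-0.61 ± 0.0958). SPRY1 had 17, 24 and 33 counts in the control and 11, 9 and 10 counts in the STAT3 shRNA libraries. It passed the filter on low counts only through the control libraries, where it was higher, so its lower value carries that selection. The list did not move as 1: 10 of the 22 had a positive value. DUSP4 (0.68 ± 0.259), DUSP5 (0.57 ± 0.212), DUSP6 (0.66 ± 0.392) and PHLDA1 (0.94 ± 0.287), also named after their values were seen, lay higher and were not called. EGR1, an immediate early transcription factor, rose from 70.9 ± 2.37 to 112 ± 13.3 CPM (0.66 ± 0.102; edgeR adjusted p = 0.00226). ETV5, ETV4, SPRY2 and EGR1 passed the test in all 13 alternatives. EGR2, EGR3, SPRY4 and ETV1 of this list had a row but did not pass the filter on low counts. EGR3 had 0, 0 and 0 counts in the control and 11, 9 and 28 counts in the STAT3 shRNA libraries. EGR2 had 0, 7 and 5 against 17, 16 and 9 counts, SPRY4 8, 4 and 4 against 2, 6 and 1, and ETV1 0, 0 and 0 against 0, 0 and 1.

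**Figure D5:**
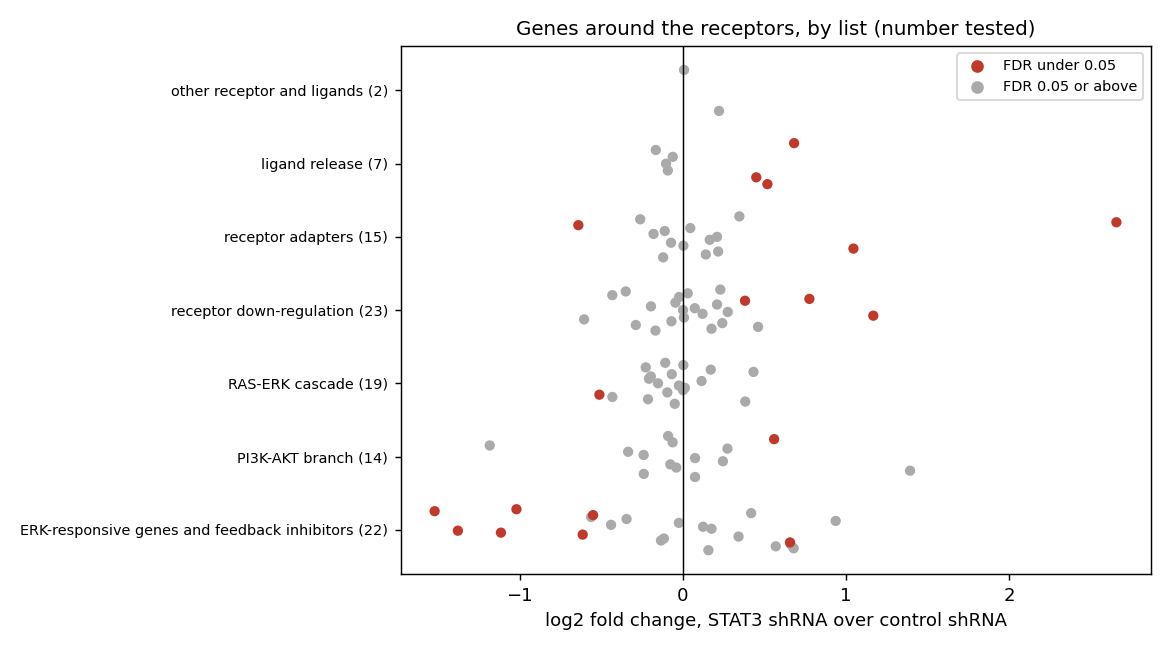
Log2 fold change of each tested gene around the receptors (points), by list, in red where the FDR was under 0.05; points are spread vertically within a list only to separate them. In the last list 6 called genes lie on the left, lower with the STAT3 shRNA, and 1 on the right. The 3 called of 7 tested genes of ligand release and the 3 called of 23 of receptor down-regulation lie on the right. Over all tested genes 17.5% were called, 9.39% higher and 8.13% lower.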

How the data were processed

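The deposited table held whole-number counts per gene for 6 libraries of RNA sequencing, as the authors deposited them, and with totals that differ between libraries. No aligner, counting program, strand setting, build or annotation is named in the sources used here, so reads of overlapping genes cannot be assigned with certainty. Groups and library numbers came from the titles. The analysis used edgeR 4.0.16 in R 4.3.3: filterByExpr at its defaults (minimum count 10, minimum total 15), TMM scaling, and a two-sided quasi-likelihood F test (robust fit) on group alone, with Benjamini-Hochberg adjustment over all 14999 genes tested and an FDR threshold of 0.05. TMM assumes that most genes do not differ. The SE is the log2 fold change divided by the square root of F, and 95% intervals, not adjusted for the number of genes, use the t quantile of the fit. Gene models and lengths came from GENCODE 29, matched by identifier without version (25996 of 27452 rows). The procedure was tested on simulated counts.

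The members and the lists were chosen with earlier results of these data known. Named genes were the members, STAT3, and per list up to 4 called genes of smallest FDR, or, with none called, the 2 of highest mean CPM. Chi-square per degree of freedom between libraries of a group was 4.20 to 43.0, so no pair agrees within counting error as 1 library deposited in duplicate would; a further library from the same RNA could still exceed it. The alternatives were other scalings, other filters, DESeq2 1.42.0, a replicate block, and leaving out each library.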

Additional observations from a re-analysis of the deposited data

How the results depend on the processing

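STAT3 stayed lower and past the threshold in all 13 alternatives, and of 27 genes named by rule 16 kept their direction and their side of the threshold in each one they entered. Other scalings, filters and DESeq2 left the 3 higher and 0 lower members as they were. Library totals moved the higher share of all calls from 53.6% to 68.7% and upper-quartile scaling to 62.3%, with the median of all genes at 0.09 and 0.05 in place of -0.01. Leaving out 1 library in turn gave 1462 to 4098 called genes in place of 2627, 2 to 5 members higher, 0 to 1 lower, 6 to 20 pathway genes higher in place of 10 and 5 to 13 lower in place of 8. The cause was not tested.

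Signs changed only for values near 0: with 1 library left out ERBB2 ran from -0.0574 (control library 1) to 0.104 (control library 3) and was negative in 4 of the 6 fits, and NRG4 ran from -0.0859 (control library 3) to 0.126 (control library 1) and was negative in 3. The library numbers gave no pairing (correlation of same-numbered deviations 0.279, 0.191 and -0.227). With the replicate number as a block 15.2% of genes were called, the members called were 3 higher and 0 lower, and SHC3 was no longer called (2.73, edgeR adjusted p = 0.0545). Adding the counts of AC034102.2 to ERBB3, chosen after seeing the data, gave 0.82 (edgeR adjusted p = 0.534), a sum in which AC034102.2 has 0 counts in 3 libraries and 290 to 423 in the other 3, and which says nothing of ERBB3 itself. BTC entered a test only without the filter on low counts, and AREG and EREG left it at a mean of at least 1 CPM. Depth limits what can be said of AREG, EREG, BTC, EPGN and EGF.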
